A study of Mus musculus with 2 samples.

Results

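Collagens were followed in single cells of the mouse dorsal root ganglion (DRG), the cluster of sensory neurons, glia, vessels and connective tissue beside the spinal cord. The 44 members are every gene in the deposited feature list whose symbol is Col, a number, a and a number, out of 32285 genes, and each had at least 1 UMI (unique molecular identifier, which counts an RNA molecule once) in the cells kept. The cKO library came from mice that were Dhh CRE+, Ptges3 flox/flox, in which Cre under Dhh, a gene of the Schwann cell lineage, deletes floxed Ptges3, the gene of the co-chaperone p23. The flox library came from Ptges3 flox/flox mice without the Cre label, so both libraries carried floxed alleles. Both were taken at postnatal day 4 from ganglia of all axial levels and were prepared with the 10x Genomics 3′ chemistry after digestion with collagenase, dispase and papain. There was 1 library per genotype, and the labels do not say how many animals each holds. No difference between the libraries therefore has a replicate check, no test was made, and the 95% intervals below cover counting error only.

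Collagens are triple helices of 3 alpha chains, which can be alike or differ, and each kind of chain has its own gene. Fibrillar collagens such as types I, III and V form the fibrils of connective tissue, fibril-associated collagens coat them, and type IV collagen forms the sheet-like network of basement membranes around Schwann cells and vessels. Peripheral nerve is wrapped by layers of fibroblasts, and Schwann cells lay down their own basement membrane as they ensheath axons.

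After filtering and doublet removal, 7866 cKO cells with a median of 4319.5 UMIs and 8107 flox cells with a median of 6886.0 UMIs remained. Cells were grouped into 35 clusters without any collagen gene among the genes used, and clusters were called X-like from markers of their type, also without collagens; 6 clusters stayed unnamed. Ptges3 was 129.8 CPM (UMIs scaled to the total of the class) in all cKO glia together and 255 CPM in flox glia, a log2 difference of -0.97 (-1.06 to -0.89), whereas fibroblast-like cells had 229 CPM in the cKO library and 183 CPM in the flox library. The libraries stood apart in makeup. Oligodendrocyte-like and astrocyte-like cells, 591 and 168 cells, came from the flox library alone, and the Schwann lineage split by library. Of Schwann-like cells, cluster 9 held 691 cKO and 27 flox cells, cluster 3 held 29 and 894 and cluster 6 held 26 and 830, and of immature-Schwann-like cells, cluster 0 held 1274 cKO and 73 flox cells and cluster 1 held 36 and 1033. Neuron-like cells had a median of 9389 UMIs in the cKO library and 47545 UMIs in the flox library. Of the barcodes kept, 16 were shared by both libraries.

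Fibroblast-like cells held by far the most collagen RNA of the 9 classes plotted, and its share of their UMIs was nearly the same in both libraries. The 44 genes gave 3.15% (3.14 to 3.17) of the UMIs of 1177 cKO fibroblast-like cells and 3.14% (3.13 to 3.15) of those of 1279 flox cells. Mural-like cells, the contractile cells of vessel walls, gave 0.785% in the cKO library and 0.755% in the flox library, and endothelial-like cells 0.671% and 0.568% in cKO and flox. Among glia, immature-Schwann-like cells gave 0.870% of cKO UMIs and 1.18% of flox UMIs, proliferating glia 0.711% and 0.921%, satellite-glia-like cells, which wrap neuronal cell bodies, 0.485% and 0.631%, and Schwann-like cells 0.407% and 0.435%, with the cKO value first in each pair. Neuron-like cells gave 0.0474% in cKO and 0.0268% in flox. Among classes that should make little collagen, macrophage-like cells gave 0.0143% in cKO and 0.0253% in flox, and neutrophil-like cells 0.0296% in cKO and 0.0519% in flox. The neuron-like value lay between those of these classes in flox and above both in cKO.

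**Figure D1:**
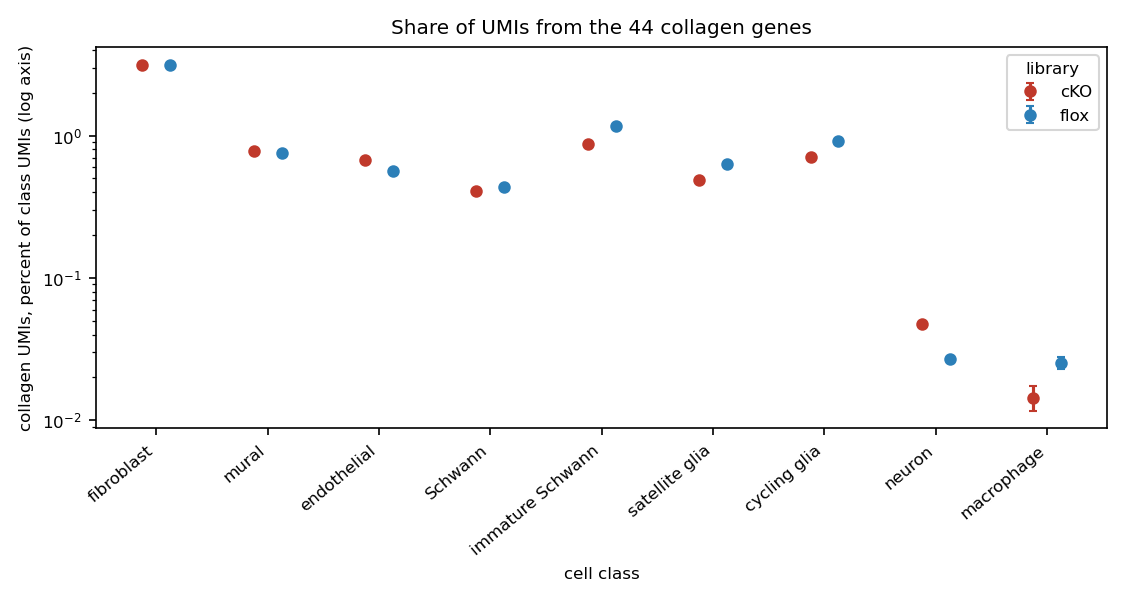
Share of each cell class's UMIs that came from the 44 collagen genes (log axis, percent), cKO left of flox, with exact 95% Poisson intervals that are mostly smaller than the points. Fibroblast-like cells lie at 3.15% (cKO) and 3.14% (flox), and the 4 glial classes lie lower in the cKO library than in the flox library.

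The genes were very unequal in abundance. The 11 fibrillar genes held 672144 UMIs over both libraries, against 81704 UMIs for the 6 genes of the basement membrane network, 48581 for the 9 fibril-associated genes and 41286 for the 6 beaded filament genes. Col1a1, Col1a2 and Col3a1, the chains of types I and III, made up 74.3% of the collagen UMIs of fibroblast-like cells in the cKO library and 74.0% in the flox library. A 3′ UMI counts a molecule once whatever its length, so levels are not scaled by length, though priming can differ between genes. Of the 40 genes with at least 100 UMIs, 22 had their highest level in fibroblast-like cells, 5 in satellite-glia-like, 4 in endothelial-like, 3 in oligodendrocyte-like, 2 in mural-like, 2 in neuron-like, 1 in astrocyte-like and 1 in immature-Schwann-like cells, counting only classes with at least 10 UMIs of the gene.

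**Figure D2:**
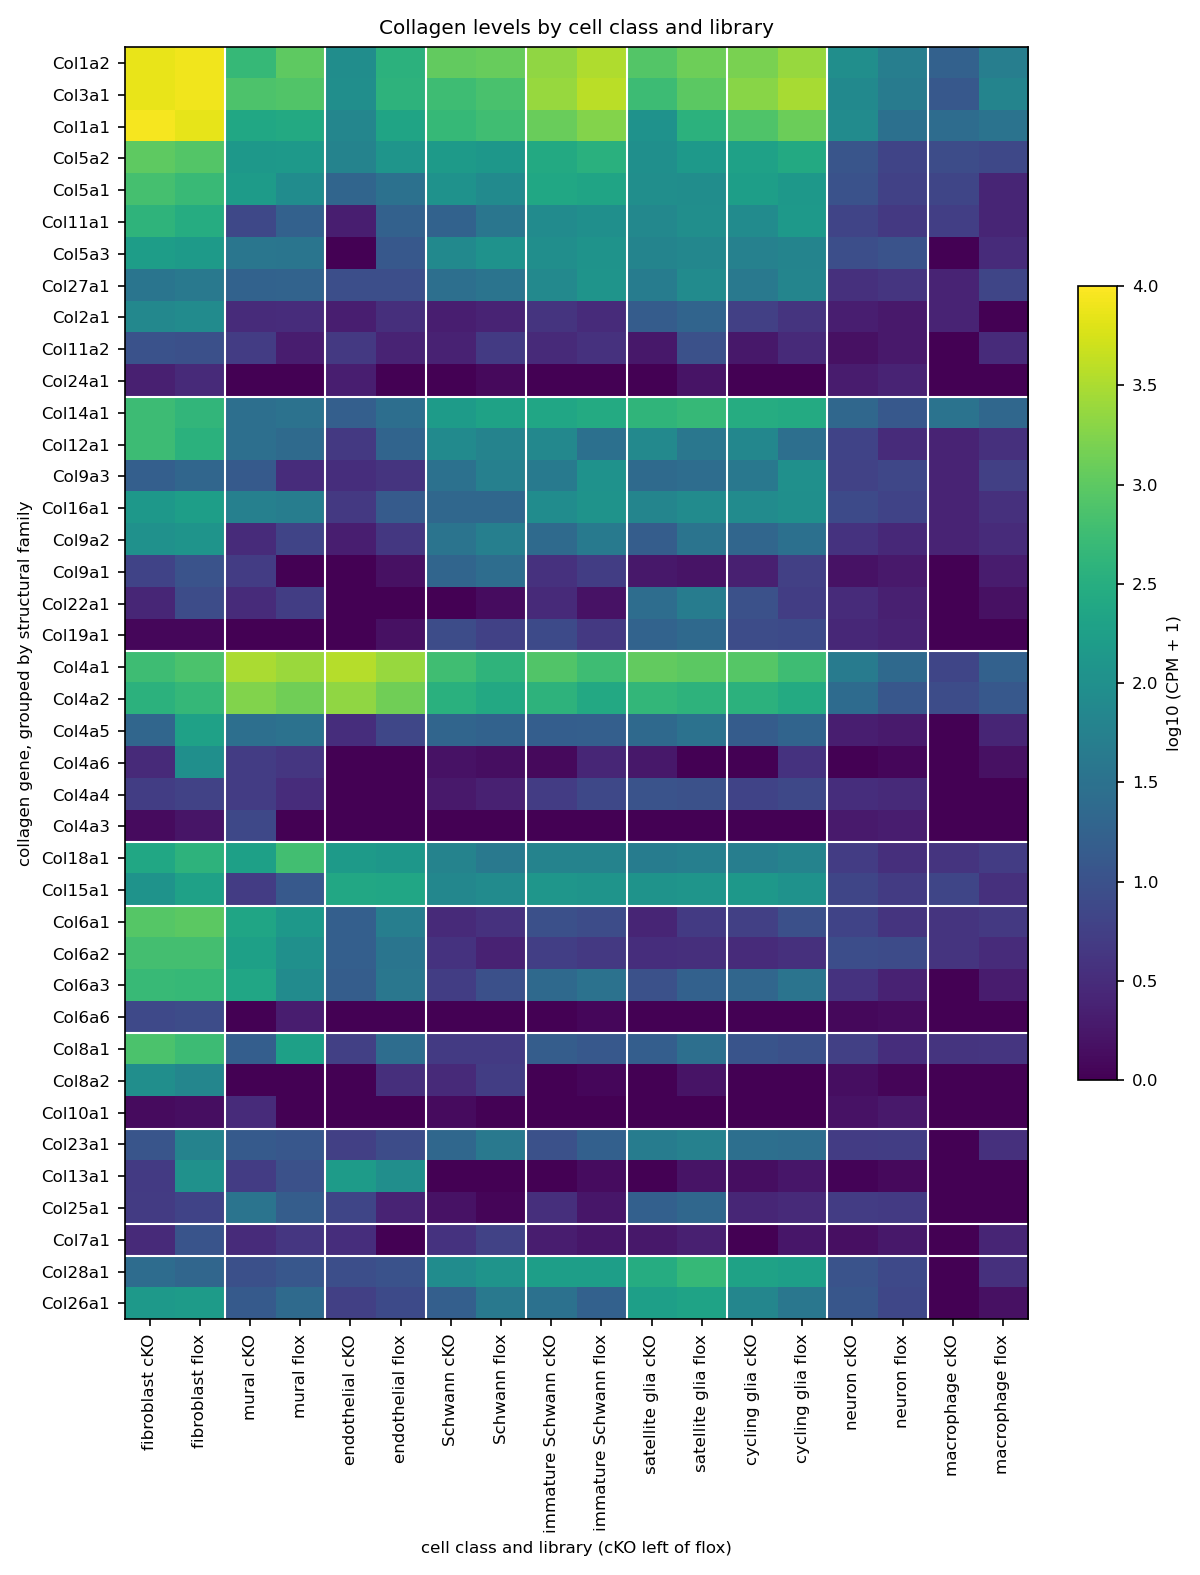
Levels (log10 of CPM + 1) of the 40 collagen genes with at least 100 UMIs in 9 cell classes, cKO left of flox within each class, with white lines between structural families. Most fibrillar genes (Col27a1 is an exception) and the beaded filament genes are brightest in fibroblast-like cells, Col4a1 and Col4a2 in endothelial-like and mural-like cells, and Col28a1 in satellite-glia-like cells.

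Most fibrillar genes had fibroblast-like cells as their first class. Col1a1 was 8724 CPM in cKO and 6986 CPM in flox fibroblast-like cells, Col1a2 was 7467 and 8148 CPM, and Col3a1 was 7238 and 8107 CPM, again cKO first. After every cell was thinned to 1000 UMIs, Col1a2 was found in 97.6% of cKO and 98.1% of flox fibroblast-like cells (99.7% and 99.8% unthinned; median depths 4658 and 6858 UMIs), against 1.88% of cKO and 5.21% of flox macrophage-like cells (5% and 15.4% unthinned; median depths 3765.5 and 4473 UMIs). Immature-Schwann-like cells were next, with Col1a2 at 2184 CPM in cKO and 3303 CPM in flox and Col3a1 at 2389 CPM in cKO and 3911 CPM in flox. These levels are far above the 89.8 CPM (cKO) and 365 CPM (flox) of Col1a2 in endothelial-like cells. Glia together held 28.6% of all Col1a2 UMIs and 17.7% of all Col1a1 UMIs. Col5a1, Col5a2 and Col5a3, which set fibril diameter, and Col11a1 had the same first class, while Col27a1 was highest in immature-Schwann-like cells at 76.5 CPM in cKO and 118 CPM in flox, followed by satellite-glia-like cells. Col2a1, best known from cartilage, was 71.7 CPM in cKO and 84.8 CPM in flox fibroblast-like cells. Col11a2 was highest in the flox oligodendrocyte-like cells at 63.5 CPM, and Col24a1 reached 1.25 CPM in cKO and 1.97 CPM in flox fibroblast-like cells and 1.02 and 1.53 CPM in neuron-like cells.

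The 2 chains of one molecule were not in one ratio in every class. Col1a1 and Col1a2 supply the 2-to-1 heterotrimer of type I collagen. UMIs of Col1a1 over Col1a2 were 1.17 (1.15 to 1.18) in cKO and 0.857 (0.849 to 0.866) in flox fibroblast-like cells, 0.443 in cKO and 0.491 in flox Schwann-like cells, and 0.127 (0.106 to 0.152) in cKO and 0.285 (0.259 to 0.312) in flox satellite-glia-like cells. Glia thus had Col1a2 above Col1a1 in both libraries, but this was not particular to glia. The ratio was 0.507 in cKO and 0.260 in flox mural-like cells and 0.892 and 0.578 in neuron-like cells. In endothelial-like cells it was 0.75 (0.522 to 1.07) in cKO and 0.590 in flox. UMIs of Col6a3 over Col6a1 were 0.544 in cKO and 0.498 in flox fibroblast-like cells, against 3.08 (2.23 to 4.33) in cKO and 3.80 (3.10 to 4.70) in flox glia, where Col6a1 and Col6a2 were nearly absent. In both libraries the glial ratios of both pairs had intervals clear of the fibroblast ones. Col4a1 over Col4a2 stayed in a narrower band, 1.497 to 2.40 in the cKO classes and 1.56 to 2.50 in the flox classes with over 1000 UMIs of the pair.

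Fibril-associated genes were spread over more classes. Col14a1 was nearly as high in satellite-glia-like cells (419 CPM in cKO, 483 CPM in flox) as in fibroblast-like cells (552 CPM in cKO, 435 CPM in flox). Col12a1 was highest in fibroblast-like cells and next in the flox astrocyte-like cells (162 CPM), and Col16a1 was highest in fibroblast-like cells, at 136 CPM in cKO and 175 CPM in flox, and next in immature-Schwann-like cells. Col9a2 was highest in fibroblast-like and next in Schwann-like cells. Col9a3 and Col9a1 were highest in flox oligodendrocyte-like cells, at 551 and 41.4 CPM. For Col9a3, flox astrocyte-like cells came next (140 CPM), above immature-Schwann-like cells (43.4 CPM in cKO, 107 CPM in flox). For Col9a1, Schwann-like cells came next (18.9 CPM in cKO, 26.4 CPM in flox). Col22a1 and Col19a1 were highest in satellite-glia-like cells, at 26.0 and 18.1 CPM in cKO and 47.5 and 21.9 CPM in flox. Col20a1, with 97 UMIs in all, lay under the level set for naming a first class.

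The other families were each centred on a few cell classes. The beaded filament genes Col6a1, Col6a2 and Col6a3 had 93.5%, 89.1% and 87.6% of their UMIs in fibroblast-like cells, with mural-like cells next, and Col6a6 had 79.6% there. Col8a1 and Col8a2, short-chain network collagens, had 91.2% and 91.5% of theirs in fibroblast-like cells. Col15a1, a basement membrane-associated collagen, was highest in endothelial-like cells (249 CPM in cKO, 235 CPM in flox), and Col18a1, its relative that releases endostatin, in mural-like cells by the mean of the libraries (188 CPM in cKO, 608 CPM in flox; fibroblast-like cells had 238 and 384 CPM). Of the transmembrane collagens, Col23a1 was highest in flox astrocyte-like cells (347 CPM), Col13a1 in endothelial-like cells, and Col25a1 in mural-like cells (33.8 CPM in cKO, 14.4 CPM in flox). Col7a1, the anchoring fibril gene, had 40.1% of its 324 UMIs in fibroblast-like cells. Col10a1, known from growth plate cartilage, had 87% of its 100 UMIs in neuron-like cells, the class with the most UMIs over all genes. Its level there was 0.589 CPM in cKO and 0.853 CPM in flox. Col6a4, Col6a5 and Col17a1 had 74, 49 and 19 UMIs in all and are not described further.

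Col28a1 was highest in the satellite glia, while Col26a1 was nearly as high in fibroblast-like cells. Col28a1 was found in 25.5% of cKO and 35.0% of flox satellite-glia-like cells after thinning (57.5% and 81.7% unthinned; median depths 3143 and 4455.5 UMIs), and in 2.46% of cKO and 1.80% of flox fibroblast-like cells. Its level was 304 CPM in cKO and 482 CPM in flox satellite-glia-like cells, and 79.6% of its UMIs lay in glia. No UMI of it was seen in the 160 cKO macrophage-like cells, and 5 UMIs were seen in the 403 flox ones. Col26a1 was 179 CPM in cKO and 210.2 CPM in flox satellite-glia-like cells, and its next class was fibroblast-like cells at 140.3 and 154 CPM in cKO and flox, which held 49.0% of its UMIs against 30.9% for glia.

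The 6 genes of type IV collagen lie in 3 head-to-head pairs, and the pairs differed in the classes that held most of their UMIs. Col4a1 and Col4a2 overlap at their starts by 22 bases on chromosome 8, Col4a4 and Col4a3 start 71 bases apart on chromosome 1, and Col4a6 and Col4a5 start 1308 bases apart on chromosome X (GENCODE vM21, GRCm38). Because UMIs were read at the 3′ ends, the overlap at the starts does not mix the counts of a pair. The windows from 250 bases before to 50 after the gene starts are shown because the members of each pair start close to each other; they are from RefSeq (GRCm38.p6), read on the gene's strand 5′ to 3′, with motif matches in capitals. The motifs searched on both strands, so that a match can also show as the reverse complement, were CCAAT (the CCAAT box), then GGGCGG (the GC box) and, thirdly, TATAAA (the TATA box), of which none of these 5 windows holds the last. A window for Col4a3 was not used here.
Col4a1 (chr8:11312777-11313076, minus strand): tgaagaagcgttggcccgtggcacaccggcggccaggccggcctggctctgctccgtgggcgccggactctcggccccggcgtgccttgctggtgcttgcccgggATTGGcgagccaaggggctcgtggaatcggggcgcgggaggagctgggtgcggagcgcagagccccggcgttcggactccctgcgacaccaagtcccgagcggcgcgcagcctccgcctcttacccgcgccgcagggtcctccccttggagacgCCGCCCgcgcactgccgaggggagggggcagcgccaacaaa
Col4a2 (chr8:11312555-11312854, plus strand): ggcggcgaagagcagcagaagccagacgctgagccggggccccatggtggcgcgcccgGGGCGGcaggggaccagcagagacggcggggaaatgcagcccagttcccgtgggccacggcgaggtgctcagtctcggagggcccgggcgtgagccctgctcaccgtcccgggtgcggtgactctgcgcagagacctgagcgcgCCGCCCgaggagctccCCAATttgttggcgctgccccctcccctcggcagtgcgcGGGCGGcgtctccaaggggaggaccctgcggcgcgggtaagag
Col4a4 (chr1:82586800-82587099, minus strand): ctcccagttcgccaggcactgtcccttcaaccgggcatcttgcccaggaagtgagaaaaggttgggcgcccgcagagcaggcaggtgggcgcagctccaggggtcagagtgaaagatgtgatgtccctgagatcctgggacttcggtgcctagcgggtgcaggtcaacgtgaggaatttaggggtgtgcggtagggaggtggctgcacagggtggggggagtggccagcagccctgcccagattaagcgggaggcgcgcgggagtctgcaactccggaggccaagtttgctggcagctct
Col4a5 (chrX:141475169-141475468, plus strand): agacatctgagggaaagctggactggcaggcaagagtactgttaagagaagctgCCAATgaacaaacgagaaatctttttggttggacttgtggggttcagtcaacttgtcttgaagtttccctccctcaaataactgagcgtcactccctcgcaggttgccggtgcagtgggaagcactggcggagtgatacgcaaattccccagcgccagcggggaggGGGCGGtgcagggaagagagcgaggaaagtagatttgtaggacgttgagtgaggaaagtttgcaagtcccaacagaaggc
Col4a6 (chrX:141474027-141474326, minus strand): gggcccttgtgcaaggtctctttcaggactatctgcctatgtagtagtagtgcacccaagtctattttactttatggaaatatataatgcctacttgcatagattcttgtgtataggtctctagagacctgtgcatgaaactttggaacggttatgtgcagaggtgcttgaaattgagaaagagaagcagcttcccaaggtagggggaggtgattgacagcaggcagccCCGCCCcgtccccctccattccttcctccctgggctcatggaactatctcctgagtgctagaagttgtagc

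The first 2 windows overlap on opposite strands, and each holds 1 CCAAT. The GC box occurs 1 time in the Col4a1 window and 3 times in the Col4a2 window. The Col4a1 match is the same site as the last Col4a2 match, read on the other strand. The Col4a4 window holds none of the 3 motifs. Over the 38 windows found for 35 collagen genes, 34.2% held CCAAT, 13.2% TATAAA and 60.5% GGGCGG, against 37.4%, 13.6% and 35.7% of all 32851 windows of the same length. A match describes letters in a window and says nothing of a bound factor.

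Col4a1 and Col4a2, the general basement membrane pair, were led by vessels. Endothelial-like cells had Col4a1 at 3568 CPM in cKO and 2444 CPM in flox, mural-like cells at 3144 CPM in cKO and 2465 CPM in flox, and Col4a2 followed in both classes. Satellite-glia-like cells came next with Col4a1 at 1079.8 CPM in cKO and 978 CPM in flox. Glia as a whole held 42.6% of all Col4a1 UMIs, fibroblast-like cells 24.8% and endothelial-like cells 16.0%. Col4a5 and Col4a6 had 72.9% and 94.7% of their UMIs in fibroblast-like cells over both libraries, most of them in 1 fibroblast type of the flox library, described below. In cKO, Col4a5 was 20.2 CPM in fibroblast-like, 18.9 CPM in Schwann-like and 22.0 CPM in satellite-glia-like cells, and Col4a6 had 13 UMIs in fibroblast-like cells. Col4a3 and Col4a4, known from the glomerular basement membrane of the kidney, had 82.4% and 51.5% of their UMIs in neuron-like cells. That class has the most UMIs over all genes, so these shares do not rank the classes by level. By level, Col4a4 was highest in satellite-glia-like cells, at 9.44 CPM in cKO and 8.76 CPM in flox. Proliferating glia came next for Col4a4, at 5.48 CPM in cKO and 6.33 CPM in flox.

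Within the neuron-like cells, Col4a3 and Col4a4 were concentrated in the sub-cluster led by Trpm8, the cold and menthol channel. Col4a4 was 64.9 CPM (49.3 to 83.8) in its 53 cKO cells and 57.2 CPM (45.6 to 70.8) in its 48 flox cells, against 1.22 CPM in all other cKO and 0.781 CPM in all other flox neuron-like cells. At least 1 UMI of it was found in 22 of 53 cKO cells and 29 of 48 flox cells of that sub-cluster, and in 1.93% of the 2796 other cKO and 2.94% of the 1465 other flox neuron-like cells. The other neurons were the deeper cells in the flox library, with median depths of 17301 UMIs (Trpm8-led) and 9228 UMIs (others) in cKO and 30124 and 48212 UMIs in flox. Col4a3 was 30.2 CPM (19.9 to 43.9) in cKO and 36.1 CPM (27.0 to 47.2) in flox Trpm8-led cells, from 27 and 53 UMIs in cKO and flox, against 0.434 and 0.316 CPM in the other neuron-like cells. After thinning to 1000 UMIs, Col4a4 was found in 9.43% of cKO and 4.17% of flox Trpm8-led cells. Both genes were high in the Trpm8-led cells of both libraries, with overlapping intervals.

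Some other members were also uneven across the neuron sub-clusters, though not all of them were highest in neurons. Col25a1 was highest in mural-like cells and Col5a3 in fibroblast-like cells. Col25a1, a transmembrane collagen known in mouse for its part in motor innervation of muscle, was 19.5 CPM (15.8 to 23.9) in 141 cKO cells and 14.8 CPM (12.3 to 17.7) in 121 flox cells of the sub-cluster led by Hopx, Tesc and Ntng1, against 2.54 CPM in the other cKO and 2.25 CPM in the other flox neuron-like cells. The flox cells of the Miat-led sub-cluster also had 18.3 CPM, while its 23 cKO cells had no UMI of the gene, and 21 cells of a cKO-only sub-cluster led by Pvalb, Tesc and Chodl had 28.4 CPM. Col5a3 was 85.8 CPM (31.5 to 186.8, 6 UMIs) in cKO and 83.7 CPM (64.5 to 106.9) in flox cells of the Miat-led sub-cluster, against 7.89 and 8.76 CPM in the other neuron-like cells. It was also 53.1 CPM in the flox cells of the Mrgprd-led sub-cluster 18. The Car8-led sub-cluster had 23.4 CPM in cKO and 29.7 CPM in flox. The Miat-led cells were shallow, with median depths of 1979 UMIs in cKO and 6241 UMIs in flox, against 9579 and 49057.5 UMIs in the others. Col5a3 was not alone there: Col16a1 (157 CPM in cKO, 47.1 CPM in flox) and Col6a2 (57.2 and 71.9 CPM) were also highest in that sub-cluster. Col10a1 was 7.20 CPM in cKO and 12.1 CPM in flox cells of the sub-cluster led by Car8, Etv1 and Mustn1, from 4 and 20 UMIs. For comparison, Col1a2 was 139.8 CPM in cKO and 54.5 CPM in flox Trpm8-led cells and 92.5 and 50.9 CPM in the other neuron-like cells of cKO and flox, so that it did not mark those cells as Col4a3 and Col4a4 did.

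**Figure D3:**
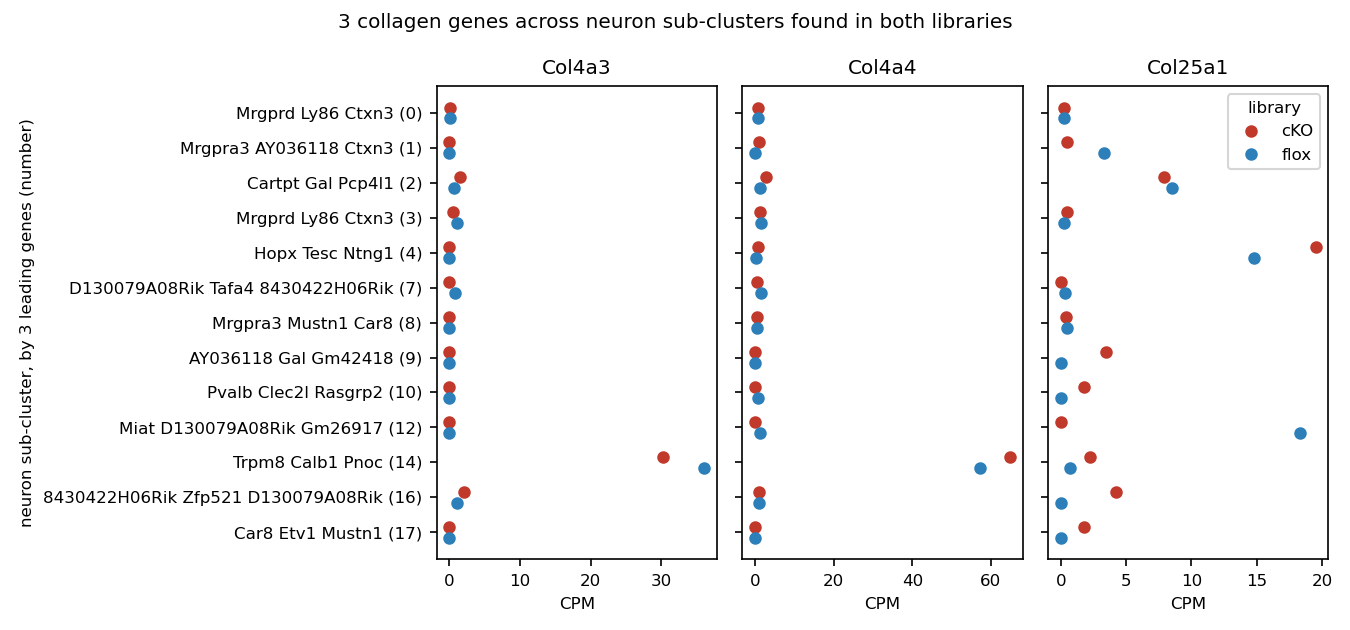
CPM of Col4a3, Col4a4 and Col25a1 in the 13 neuron sub-clusters with at least 20 cells in each library, cKO above flox, named by their leading genes and number. Col4a3 and Col4a4 stand out in the Trpm8-led sub-cluster in both libraries, and Col25a1 in the Hopx-led one and in the flox cells of the Miat-led one.

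Fibroblast-like cells were clustered again without collagens, and 7 types were told apart by their leading genes; a further sub-cluster of 27 cKO and 3 flox cells that also carried neuron genes was left out. Of the 34 collagen genes with at least 100 UMIs in these cells, 25 differed by 4-fold or more between the types with the highest and the lowest mean level, and the same number did so when the Wnt4-led type was left out. Types I and III were abundant in all of them: Col1a2 ranged from 4566 to 9535 CPM over the 6 types measured in the cKO library and from 5288 to 10770.4 CPM over the 7 measured in the flox library.

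The Ecrg4-led type (352 cKO and 170 flox cells) had the highest Col12a1, at 1205 CPM in cKO and 1492 CPM in flox, and the highest Col8a1, at 1252 CPM in cKO and 1835 CPM in flox, with Col8a2 and Col11a1 highest there too. The Spp1-led type (415 cKO and 185 flox cells) had Col26a1 at 369 CPM in cKO and 319 CPM in flox; it was the highest type in cKO, while in flox the Ttr-led type had 362 CPM. Its Col28a1 was 60.9 CPM in cKO and 81.3 CPM in flox, against 67.5 CPM in cKO and 58.4 CPM in flox cells of the Ttr-led type. The Ly6a-led type (123 cKO and 256 flox cells) had the highest Col14a1, at 745 CPM in cKO and 942 CPM in flox. The Ttr-led type (40 cKO and 148 flox cells) had a set known from cartilage, with Col2a1 at 714 CPM in cKO and 488 CPM in flox, Col9a2 at 559.5 and 459.9 CPM and Col9a3 at 125 CPM in both, and the highest Col15a1, at 1500.2 CPM in cKO and 918 CPM in flox. In the Sfrp4-led type (175 cKO and 109 flox cells), Col2a1 was 1.37 CPM in cKO and 1.45 CPM in flox. Some of these types rest on sub-clusters that split by library. Of the Ttr-led cells, 38 of 40 in cKO lay in sub-cluster 9 and 147 of 148 in flox in sub-cluster 6; of the Spp1-led cells, 380 of 415 in cKO lay in sub-cluster 1 and 164 of 185 in flox in sub-cluster 5; of the Ly6a-led cells, 75 of 123 in cKO lay in sub-cluster 8 and 255 of 256 in flox in sub-cluster 3.

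The Wnt4-led type, which also had Slc6a13 and Notum, held 316 flox cells and only 2 cKO cells. In it Col4a5 was 529 CPM, Col4a6 289 CPM, Col13a1 314 CPM, Col18a1 769.6 CPM and Col23a1 148 CPM. Col4a6 was at most 38.6 CPM and Col13a1 at most 9.12 CPM in any of the 6 types measured in the cKO library. Whether the near absence of this type belongs to the genotype or to the dissection of 1 library cannot be told apart.

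**Figure D4:**
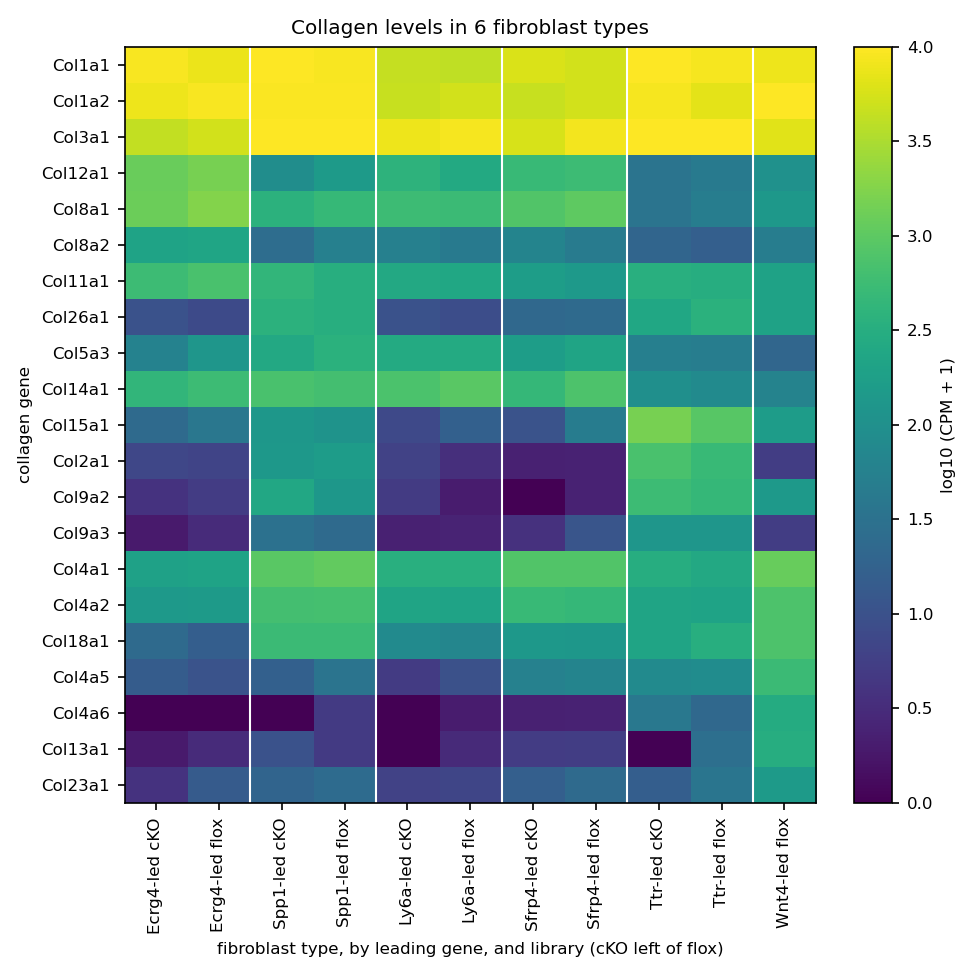
Levels (log10 of CPM + 1) of 21 collagen genes in 6 fibroblast types called by a leading gene, cKO left of flox; the Wnt4-led type is shown for flox only, with 316 cells against 2 in cKO, and the cell-cycle type is not drawn. Col12a1 and Col8a1 peak in the Ecrg4-led type, Col15a1, Col2a1 and Col9a2 in the Ttr-led type, and Col4a5, Col4a6 and Col13a1 in the Wnt4-led type.

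Between the genotypes, the widest differences among collagens of fibroblast-like cells were in Col4a5, Col4a6 and Col13a1, the genes highest in the Wnt4-led type. Of the 36 members with at least 50 UMIs, 1 was higher and 9 were lower in cKO by at least 0.5 log2, where 8.03% of all 11774 genes measured were higher and 18.4% lower. The median over the members was -0.17, against -0.10 over all genes. The 3 lowest were Col4a6 (2.04 CPM in cKO, 96.1 CPM in flox, log2 difference -5.56, -6.48 to -4.78), Col13a1 (3.76 and 104 CPM, -4.79) and Col4a5 (20.2 and 191 CPM, -3.24). Without the Wnt4-led type, Col4a6 was 2.04 CPM in cKO and 16.2 CPM in flox (-2.99), Col13a1 3.77 and 17.6 CPM (-2.22) and Col4a5 20.3 and 51.6 CPM (-1.35), while Col18a1 was 238 CPM in cKO and 225 CPM in flox (0.08) in place of 238 and 384 CPM (-0.69). Then 0 of 34 members were higher and 8 lower, against 6.47% and 18.9% of all genes. Col15a1, at 113 CPM in cKO and 191 CPM in flox with that type, stayed lower without it (-0.84), while in the Ttr-led type, where it was highest, its cKO level was the higher of the pair. Many of the flox UMIs left without the Wnt4-led type lay in the cell-cycle type, led by Hist1h1b and Ube2c (43 cKO and 92 flox cells). It held 97 of 134 for Col4a6, 93 of 145 for Col13a1 and 183 of 426 for Col4a5. Col4a5 was also lower in the Spp1-led type (-1.10), while its intervals held 0 in the Sfrp4-led and Ttr-led types (-0.19 and -0.09).

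Col12a1 was the single member counted as higher, at 555 CPM in cKO and 354 CPM in flox (0.65, 0.59 to 0.72), but the difference was 0.29 without the Wnt4-led type and did not hold within types. In the Ecrg4-led type it was lower in cKO (-0.31, -0.39 to -0.23), and over 6 types the interval lay above 0 in 1 and below 0 in 3. The Ecrg4-led type made up 352 of 1177 cKO cells and 170 of 1279 flox cells. Col1a1 was higher in cKO within each of the 6 types found in both libraries, by 0.14 to 0.32 log2, with every interval above 0. Col1a2 and Col3a1 lay below 0 in 4 and 5 of the 6 types. Col8a1 (732 CPM in cKO, 543 CPM in flox) and Col11a1 (403 and 298 CPM) were among the 3 with the highest bound over the class, at 0.43 each; without the Wnt4-led type they differed by 0.05 and 0.26, and within types Col8a1 lay above 0 in none and below 0 in 3. Col5a1, Col5a2 and Col14a1 differed by 0.38, 0.30 and 0.35 log2 over the class and by 0.23, 0.07 and -0.09 without the Wnt4-led type, Col6a1, Col6a2 and Col6a3 by -0.11 to 0.02 (-0.18 to -0.13 without that type), and Col4a1 and Col4a2 by -0.39 and -0.31, which became 0.03 and 0.14 without the Wnt4-led type.

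In glia, Col4a1 and Col4a2 were higher and the genes of types I and III lower in the cKO library than in the flox library, in each of the 4 classes. Of the other type IV genes, Col4a5 and Col4a4 over all glia had intervals that held 0 (-0.12 and 0.14). Col4a1 was 588 CPM in cKO and 402 CPM in flox Schwann-like cells (0.55, 0.48 to 0.62), 821 and 562 CPM in immature-Schwann-like cells (0.55), 866 and 576 CPM in proliferating glia (0.59) and 1079.8 and 978 CPM in satellite-glia-like cells (0.14, 0.04 to 0.25). Col4a2 differed in the same direction by 0.41, 0.59, 0.43 and 0.20 log2. Col1a2 differed by -0.15 in Schwann-like, -0.60 in immature-Schwann-like, -0.64 in proliferating and -0.61 in satellite-glia-like cells, and Col3a1 by -0.34, -0.71, -0.61 and -0.83. Col1a1 differed most in satellite-glia-like cells, with 109 CPM in cKO and 373 CPM in flox (-1.77, -2.05 to -1.50), against -0.30, -0.57 and -0.70 in Schwann-like, immature-Schwann-like and proliferating cells. None of these intervals held 0. The 10 myelinating Schwann markers summed to 46337 CPM in cKO and 110436 CPM in flox Schwann-like cells. Their sums were 5042 and 8976 CPM in immature-Schwann-like, 3364 and 5870 CPM in proliferating and 3320 and 5784 CPM in satellite-glia-like cells. The cells compared thus differed in myelin RNA between the libraries, and its part in these differences was not tested. In fibroblast-like cells of the same libraries, Col1a1 was higher in cKO (0.32, and 0.40 without the Wnt4-led type), while Col4a1 differed by -0.39 with that type and by 0.03 (-0.03 to 0.10) without it, and whether the difference differs between cell types was not tested.

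Col12a1 was higher and Col9a3 lower in cKO glia. Col12a1 was 72.3 CPM in cKO and 28.7 CPM in flox immature-Schwann-like cells (1.33, 1.04 to 1.63), 75.5 and 36.9 CPM in satellite-glia-like cells (1.03), 70.8 and 27.9 CPM in proliferating glia (1.35) and 82.0 and 59.8 CPM in Schwann-like cells (0.46). Col9a3 was 43.4 CPM in cKO and 107 CPM in flox immature-Schwann-like cells (-1.30), 38.4 and 102 CPM in proliferating glia (-1.42) and 30.6 and 55.2 CPM in Schwann-like cells (-0.85), while its interval held 0 in satellite-glia-like cells (-0.17, -0.91 to 0.55). Of the other chains of type IX collagen, Col9a2 was lower in cKO in each of the 4 classes (-0.62 in Schwann-like, -0.84 in immature-Schwann-like, -1.25 in satellite-glia-like and -0.54 in proliferating cells). Col9a1, mostly in Schwann-like cells, differed there by -0.48 (-0.88 to -0.10); over all glia, of which Schwann-like cells were 746 of 2989 in cKO and 1751 of 3677 in flox, it differed by -1.18. Col26a1 differed in sign between glial classes, at 30.6 CPM in cKO and 16.4 CPM in flox immature-Schwann-like cells (0.90), 66.6 and 38.0 CPM in proliferating glia (0.81) and 15.1 and 40.5 CPM in Schwann-like cells (-1.42). In Schwann-like cells Col18a1 was also higher in cKO (0.56) and Col11a1 and Col23a1 lower (-1.07 and -1.01). Col28a1 was lower in cKO in Schwann-like (-0.43) and satellite-glia-like cells (-0.67), and its intervals held 0 in immature-Schwann-like cells (-0.03), in proliferating glia (0.13) and over all glia (0.03).

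**Figure D5:**
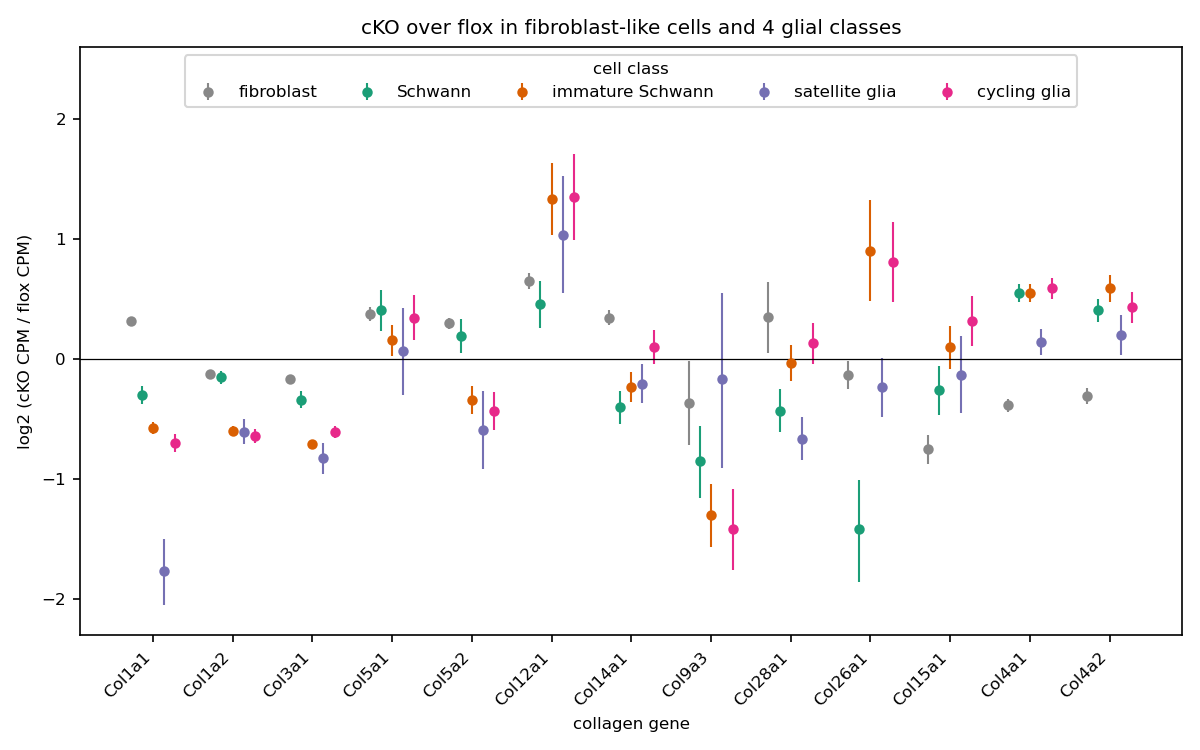
Log2 of cKO CPM over flox CPM for 13 collagen genes in fibroblast-like cells and 4 glial classes, with exact 95% intervals for counting error; there is 1 library per genotype. Col4a1 and Col4a2 lie above 0 in the 4 glial classes and Col1a1, Col1a2 and Col3a1 below 0, while Col12a1 lies above 0 in all 5 classes.

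Over the whole list, lower members outnumbered higher ones in each of the 4 glial classes. Of 28 members in Schwann-like cells, 3 were higher and 9 lower in cKO, where 14.4% and 15.8% of all genes were, with a median of -0.32 against 0.02. Of 24 members in immature-Schwann-like cells, 4 were higher and 7 lower (9.38% and 18.0% of all genes; median -0.23 against -0.08). Of 25 in satellite-glia-like cells, 1 was higher and 10 lower (6.76% and 16.8%; -0.33 against -0.11), and of 23 in proliferating glia 3 were higher and 8 lower (7.45% and 15.4%; -0.20 against -0.08). In all glia together 6 of 34 were higher and 7 lower (14.1% and 14.6%), with a median of -0.01 over members and 0.01 over all genes. The Schwann-like cells came from 746 cKO and 1751 flox cells in different clusters, so their values compare those clusters. The same holds for immature-Schwann-like cells, with 1274 of 1310 cKO cells in cluster 0 and 1033 of 1106 flox cells in cluster 1.

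Endothelial-like cells showed the same direction for Col4a1 and Col4a2. In endothelial-like cells (149 cKO and 168 flox) Col4a1 was 3568 CPM in cKO and 2444 CPM in flox (0.55), Col4a2 2144 and 1379 CPM (0.64) and Col13a1 154 and 94.2 CPM (0.71). Of 15 members, 3 were higher and 10 lower in cKO, where 18.8% and 25.5% of all genes were, with a median of -1.004 against -0.08. The lower ones included fibrillar genes, with Col3a1 at 92.2 CPM in cKO and 378 CPM in flox (-2.04), Col1a2 at 89.8 and 365 CPM (-2.02) and Col1a1 at 67.4 and 215 CPM (-1.67), followed by Col5a2 and Col6a1 (-1.004 and -1.73). Col15a1 (249 and 235 CPM) and Col18a1 (149 and 131 CPM) had intervals that held 0. The 13 fibroblast markers summed to 561 CPM in cKO (11 of 13 with a UMI) and 1098 CPM in flox endothelial-like cells (12 of 13), and the 10 myelinating Schwann markers to 266 CPM (8 of 10) and 1760.1 CPM (10 of 10); their part in the fibrillar difference was not tested. Without doublet removal the median over members was 0.10, and after thinning, with 5 members measured, 0.32.

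In mural-like cells (173 cKO and 124 flox) Col4a1 and Col4a2 were higher in cKO by 0.35 and 0.38 log2. Col6a1, Col6a2 and Col6a3 were higher too, at 224, 184 and 232 CPM in cKO and 133, 101 and 84.0 CPM in flox, as was Col5a1 (0.80). Col8a1 was 14.8 CPM in cKO (7 UMIs) and 185 CPM in flox (167 UMIs), Col18a1 188 and 608 CPM (-1.70) and Col1a2 479 and 1018 CPM (-1.09), while Col1a1, Col3a1 and Col5a2 had intervals that held 0. Of 13 members, 4 were higher and 3 lower, where 16.2% and 26.1% of all genes were, with a median of 0.17 against -0.11. The 12 mural markers summed to 13495 CPM in cKO and 28223 CPM in flox cells of this class, and the fibroblast markers to 3836 CPM in cKO (11 of 13 with a UMI) and 2025 CPM in flox (13 of 13); their part in these differences was not tested.

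In neuron-like cells most collagens were low, and over the whole class many were higher in the cKO library, but the class lay in different sub-clusters in the libraries. The Hbb-bs-led sub-cluster 6 held 242 cKO cells and 1 flox cell with 0.171% of the cKO UMIs from collagens, and sub-clusters 5, 11 and 1 held 251, 158 and 478 cKO cells and 3, 4 and 50 flox cells. Leading genes of sub-cluster 6 included Igfbp7, Mgp and Ecrg4, which also led fibroblast-like clusters. Those of sub-cluster 15 (86 cKO and 5 flox cells) included C1qa, C1qb, C1qc and Tyrobp, which also led macrophage-like clusters. Both were kept as neuron-like, and their part in the class values was not tested. The collagen shares were close in some of the sub-clusters with at least 20 cells in each library. They were 0.0485% in cKO and 0.0480% in flox in the Cartpt-led sub-cluster 2 and 0.00522% and 0.00543% in the Mrgprd-led sub-cluster 0. Sub-cluster 16, with 36 cKO and 39 flox cells, had 0.0551% and 0.0609%, and sub-clusters 7 and 17 were close too. In the rest, sub-clusters 1, 3, 4, 8, 9, 10, 12 and 14, the share was higher in cKO. It was 0.115% in cKO and 0.0621% in flox in sub-cluster 1, and 0.0499% and 0.0359% in sub-cluster 3. The Pvalb-led sub-cluster 10 had 0.151% and 0.102%, sub-cluster 4 had 0.0350% and 0.0277% and sub-cluster 8 had 0.0398% and 0.0279%. Of 37 members, 20 were higher and 5 lower in cKO, where 8.72% and 4.37% of all genes were, with a median of 0.55 against -0.02. Col1a1 was 83.3 CPM in cKO and 29.4 CPM in flox (1.501, 1.42 to 1.58), Col1a2 93.4 and 50.9 CPM (0.87), Col3a1 78.6 and 44.4 CPM (0.82), Col4a1 44.7 and 22.3 CPM (1.00) and Col4a2 24.0 and 11.3 CPM (1.08). Col12a1 was 5.38 CPM in cKO and 2.15 CPM in flox (1.33). Among the members with at least 100 UMIs, the lowest by bound were Col24a1 (-0.59), Col5a3 (-0.26) and Col9a3 (-0.25). After thinning, Col1a2 was found in 14.5% of cKO and 5.02% of flox neuron-like cells, and in 1.88% and 5.21% of macrophage-like cells. In neurons with at least 10000 UMIs, 1383 cKO and 1290 flox cells, 12 of 36 members were higher and 3 lower, where 7.51% and 4.71% of all genes were, with a median of 0.33 against -0.01. The 13 fibroblast markers summed to 156 CPM in cKO and 119 CPM in flox neuron-like cells (13 of 13 with a UMI in each); their part in the difference was not tested. In an Mrgprd-led sub-cluster of 296 cKO and 395 flox cells, with median depths of 41644.5 and 56684 UMIs, Col1a2 was 7.39 CPM in cKO and 7.98 CPM in flox.

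Genes that make, bind or remove collagen were counted in the same way. Of 64 such genes, 53 had at least 50 UMIs in fibroblast-like cells, of which 7 were higher and 2 lower in cKO (8.03% and 18.4% of all genes), with a median of -0.06 against -0.10. The highest by bound were Ogn, a small proteoglycan that binds fibrils (393 CPM in cKO, 263 CPM in flox, 0.58), Adamts2, the procollagen N-proteinase (212 and 142 CPM, 0.58), and Itgb1, the integrin beta chain of the collagen receptors (591 and 426 CPM, 0.47). The lowest were Mmp2, a gelatinase (136 and 240.2 CPM, -0.82), Sparc, a collagen-binding matrix protein (6141 and 8424 CPM, -0.46), and Ppib, a prolyl isomerase that helps folding (1367 and 1773 CPM, -0.38). In neuron-like cells 53 were measured, 20 higher and 0 lower (8.72% and 4.37% of all genes), with a median of 0.33 against -0.02. That class lay in different sub-clusters in the libraries. In Schwann-like cells 42 were measured, 2 higher and 8 lower (14.4% and 15.8% of all genes), with a median of -0.09 against 0.02. There P4hb, a subunit of prolyl 4-hydroxylase (0.60), Timp2, a metalloproteinase inhibitor (0.47), and Itgb1 (0.42) were highest, and Ogn (144 CPM in cKO, 287 CPM in flox, -0.99), Sparc (3337 and 5551 CPM, -0.73) and the proteoglycan gene Bgn (-1.51, from 8 cKO and 95 flox UMIs) lowest. In satellite-glia-like cells 1 of 34 was higher and 13 lower (6.76% and 16.8% of all genes; median -0.37 against -0.11), 7 of these among the 17 measured genes of synthesis and folding.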

How the data were processed

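Counts were used as deposited by the authors: whole-number UMI counts per gene and barcode, not normalized. Per the file headers they were made with cellranger 6.1.2, while the submitters' processing notes list Cell Ranger 5.0.1, Scanpy and mm10. The sources used here do not state how intronic reads or free RNA were treated. The libraries held 9703 cKO barcodes with 78144437 UMIs and 10014 flox barcodes with 132620886 UMIs.

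The filter asked for 1000 UMIs, 500 genes and no more than 15% mitochondrial UMIs per cell. Scrublet's automatic threshold marked 2 cKO and 0 flox doublets, so cells were taken out from the top of its score, 0.8% for each 1000 cells, 569 cKO and 607 flox. Scanpy 1.11.5 gave 2000 variable genes without collagens, 30 components and Leiden clusters at resolution 1.0. Classes were named from marker lists without collagens. Fibroblast-like and neuron-like cells were clustered again at resolution 0.6, and fibroblast sub-clusters sharing at least 4 of 10 leading genes were joined into types.

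UMIs were summed per class and library and scaled to CPM, with exact Poisson intervals; shares of cells have Clopper-Pearson intervals, and log2 ratios exact conditional binomial ones. Ratios were made for genes with at least 50 UMIs, and 0.5 log2 counted as higher or lower. Thinning drew 1000 UMIs per cell. The interval code was tested on simulated data. edgeR 4.0.16 and DESeq2 1.42.0 gave the alternative scalings only, in R 4.3.3. The genes named were the 12 with most UMIs and, among members with at least 100 UMIs in a class, the 3 most raised and 3 most lowered by whichever interval limit is closer to 0, and of the pathway genes the 3 highest and 3 lowest in fibroblast-like and Schwann-like cells; genes named in sub-clusters, the minimum of 10 UMIs for a highest class and the added settings were chosen after seeing the data. The members, lists and rules were chosen with earlier results of these data known. Promoter windows were matched to 35 members by symbol, and 32235 of 32285 gene identifiers were found in GENCODE vM21.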

Additional observations from a re-analysis of the deposited data

Results flagged for a closer look

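Col13a1, Col22a1 and Col6a1 differed between the libraries in opposite directions in a pair of cell classes, by at least 0.5 log2 in each and with counting intervals clear of 0. With 1 library per genotype the difference between classes was not tested. Col13a1 was lower in cKO fibroblast-like cells (-4.79) and higher in cKO endothelial-like cells (0.71), a gap of -5.50. Col22a1 was lower in cKO fibroblast-like cells (-2.14) and higher in cKO glia together (0.51), a gap of -2.65; within satellite-glia-like cells, which hold most of its glial UMIs, it was lower in cKO (-0.87, -1.51 to -0.27). Col6a1 was higher in cKO mural-like cells (0.75) and lower in cKO endothelial-like cells (-1.73), a gap of 2.48. The fibroblast-like values of Col13a1 and Col22a1 include the Wnt4-led type, found nearly only in the flox library.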

How the results depend on the processing

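No paired analysis was possible because there is 1 library per genotype and no test. In endothelial-like cells the median log2 difference of -1.004 became 0.10 without doublet removal and 0.32 after thinning to 1000 UMIs, where 5 members were measured, and ranged from -1.10 to -0.90 under the other 11 settings. In neuron-like cells 0.55 became 1.43 with each library clustered alone, where 495 cKO cells were named, and 1.12 after thinning; the cause was not tested. The collagen share of fibroblast-like cells, at 0.01 log2, became -0.082 with the mean of each cell's CPM, 0.030 without doublet removal, -0.068 after thinning and 0.040 without clusters nearly all from 1 library. The medians in Schwann-like, satellite-glia-like, mural-like and fibroblast-like cells and in all glia stayed within the interval of the main value under every alternative run, although in mural-like cells the sign turned without a filter on low counts (-0.05) and in all glia the median lay between -0.22 and 0.06. Leaving out clusters nearly all from 1 library gave no value in Schwann-like cells, whose clusters are all of that kind. The clusters of immature-Schwann-like cells are of that kind too, so all glia then held 933 cKO and 820 flox cells. Between 19 and 22 members had fibroblast-like cells as their highest class under the alternatives. Members found in at least 10% of fibroblast-like cells of both libraries numbered 18 thinned and 23 unthinned. Neurons of at least 10000 UMIs and fibroblasts without the Wnt4-led type were settings added after seeing the data. The flox library is deeper per cell, and members with few UMIs in cKO classes are limited by counting.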

Other observations

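Unnamed clusters carried collagen RNA too. Cluster 23, 175 cKO cells and no flox cells with neuron genes beside Mgp and Mfap5, had 0.343% of its UMIs from collagens and Col1a2 at 739 CPM, above the 93.4 CPM of cKO neuron-like cells. Cluster 29, led by haemoglobin genes, had 0.0697% in 21 cKO cells and 0.210% in 51 flox cells.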
